A study of Rattus norvegicus with 8 samples.

Results

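The genes followed were 10 transcripts known as enriched in oligodendrocyte progenitors, namely Lhfpl3, C1ql1, Cacng4, Xylt1, Rlbp1, Megf11, Nxph1, Emid1, Tmem100 and Dscam. They were chosen by name, with earlier results of these data known. Every probe set whose only gene symbol is one of them was read, which gave 14 of 31042 probe sets and 10 of 14217 genes. The series compared cells sorted by flow cytometry from whole rat brain at postnatal day 7. One population carried A2B5, named by the labels as progenitors, and the other carried galactocerebroside (GalC), named as oligodendrocytes. Each had 4 biological replicates, and each replicate was a pooled litter of 10 pups measured on 1 Affymetrix array. Whether arrays of the same replicate number share a litter is not stated. The labels give no strain, treatment or genotype, and the gate is set by surface lipids, so that other cells with these lipids could enter either population.

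Oligodendrocyte progenitors divide and migrate through the developing brain, receive synapses from axons, and lose their progenitor transcripts as they become myelinating cells. The genes followed here encode proteins of different places in the cell. Nxph1, C1ql1 and Emid1 are secreted. Dscam, Megf11, Lhfpl3, Tmem100 and Cacng4 lie in the membrane. Rlbp1 is a soluble protein of the cytoplasm and Xylt1 an enzyme of the Golgi membrane, so the description as membrane and secreted markers does not hold for Rlbp1.

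Of these genes, 5 were lower in GalC+ than in A2B5+ cells (17.1% of all 14217 genes were lower and 17.7% higher) and 5 did not pass the test. In sorted pools, fewer cells of a type and less RNA per cell cannot be told apart. Nxph1 was 5.11-fold lower by the probe set with its largest difference, Dscam 2.93-fold and Rlbp1 2.86-fold, whereas Emid1 was 1.46-fold and Megf11 1.38-fold lower. Lhfpl3, C1ql1, Cacng4, Xylt1 and Tmem100 did not pass. By probe set, 8 of 14 were lower (57.1%), against 13.2% of all probe sets, and 0 were higher, against 13.5% of all (limma, adjusted p under 0.05; 0 were higher at an unadjusted p under 0.05, and 0 with each probe set's own spread in each population in place of limma's). With that spread the lower calls dropped to 3 probe sets and 2 genes. The 4 GalC+ arrays all lay below the 4 A2B5+ arrays in 9 of the 14, against 13.8% of all probe sets. The median log2 difference was -0.50 over the 14 and 0.04 over all probe sets. The genes were chosen with earlier results of these data known, so the shares above are not independent of the data. Several of the 8 lower probe sets belong to Nxph1 or Dscam.

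Over all probe sets the populations separated along the first principal component, which held 73.0% of the variance, and GalC+ replicate 4 had the GalC+ loading nearest to 0 (0.219 against up to 0.449). Markers of both sorted stages were measured beside the genes. All 14 measured myelin genes were higher in GalC+. Among them were Mbp (log2 difference 3.86, mean of its 3 probe sets 2.50) and Ugt8 (3.89, mean of its 2 probe sets 1.96), the enzyme that makes galactocerebroside. Neuron markers were lower in 16 of 22 and higher in 1 (median -1.75; Elavl3, named after its value was seen, was the higher one). Stmn2, a neuronal microtubule regulator, differed by -2.67 (mean of 2 probe sets -2.23). The mean log2 ratio of the neuron list was 0.37 to 0.71 in the A2B5+ arrays and -1.38 to -0.44 in the GalC+ arrays. GalC+ replicate 4 was the highest of the latter. That array was also the highest GalC+ array in all 8 called probe sets of the genes followed. The same held for the other progenitor genes (mean log2 ratio 0.06) and the proteoglycan core proteins (0.02). Both of these lists hold Cspg4, Cspg5, Vcan, Bcan, Ncan and Ptprz1, so they are not independent. The lowest GalC+ array was replicate 3 for the neuron list but replicate 2 in 7 of the 8 called probe sets. Dscam and Nxph1 are also expressed by neurons. The part of neuronal RNA in the falls of the genes followed was not tested. Macrophage markers were higher in GalC+ in 14 of 17, with Cd163 at 5.41, mural cell markers in 9 of 11, and astrocyte markers in 0 of 12 in either direction (1 lower at an unadjusted p under 0.05, 0 with each probe set's own spread, and 4 lower without GalC+ replicate 3); their part was not tested either.

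The promoters of the gene that fell most (Nxph1), of a further gene that fell (Rlbp1) and of one without a call (Xylt1) are shown with the letters of transcription factor motifs in capitals. Each run is the 250 bases before a RefSeq transcript start (build GRCr8), read 5′ to 3′ in the direction of the gene. Nxph1 lies at chr4:37964075-37964324 on the plus strand, Rlbp1 at chr1:142731622-142731871 on the minus strand and Xylt1 at chr1:181077972-181078221 on the plus strand.
Nxph1: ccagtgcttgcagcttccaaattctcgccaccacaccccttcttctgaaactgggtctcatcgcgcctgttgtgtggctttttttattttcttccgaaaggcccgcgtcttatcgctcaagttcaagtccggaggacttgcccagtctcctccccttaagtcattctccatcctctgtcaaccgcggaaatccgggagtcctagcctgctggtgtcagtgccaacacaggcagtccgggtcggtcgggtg
Rlbp1: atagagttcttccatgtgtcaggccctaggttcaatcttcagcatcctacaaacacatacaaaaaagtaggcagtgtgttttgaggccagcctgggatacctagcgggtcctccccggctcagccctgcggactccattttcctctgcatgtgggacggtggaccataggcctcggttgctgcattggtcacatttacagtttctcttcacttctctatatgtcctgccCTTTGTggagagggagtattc
Xylt1: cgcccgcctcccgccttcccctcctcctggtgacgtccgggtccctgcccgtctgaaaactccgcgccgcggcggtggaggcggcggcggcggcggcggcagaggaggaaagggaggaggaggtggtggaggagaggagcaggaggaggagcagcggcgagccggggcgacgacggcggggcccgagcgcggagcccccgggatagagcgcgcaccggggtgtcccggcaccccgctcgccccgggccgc
The capitals in Rlbp1 are a match to ACAAAG, the core of the motif of SOX factors, on the opposite strand. That motif occurs in 16.3% of all 33469 RefSeq windows of this length on either strand. The E-box forms CAGATG and CAGCTG occur in 14% and 12% of windows and in none of the 3 shown. RefSeq windows were found for 7 of the 10 genes, 6 of them by gene ID and Lhfpl3 by symbol alone. The window of Lhfpl3 held 3 matches to CAGCTG, and those of Dscam and Emid1 held no match to any of the motifs. Megf11 has 6 windows, of which 1 held ACAAAG and 1 CAGATG. A match is a string of letters and was not tested as a binding site.

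The values below are the deposited ratios, in which 1 stands for the median of the 8 arrays on that probe set. They show differences between arrays and carry no level, so that genes cannot be ranked by abundance and a probe set near background cannot be recognised.

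**Figure D1:**
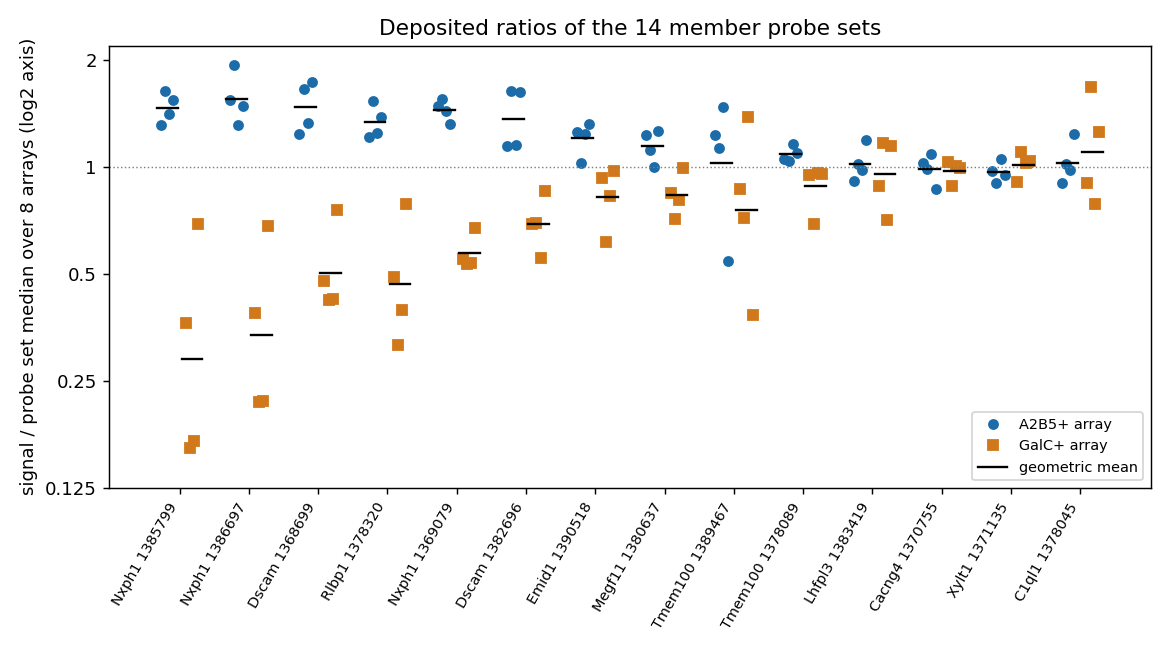
Deposited ratios (log2 axis, no unit) of the 14 probe sets, ordered by the difference between populations; circles are the 4 A2B5+ arrays, squares the 4 GalC+ arrays, and bars geometric means. The GalC+ arrays of Nxph1 probe set 1385799_at lie between 0.162 and 0.69, below all A2B5+ arrays, while the arrays of Lhfpl3, Cacng4, Xylt1 and C1ql1 are mixed.

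Nxph1 encodes neurexophilin 1, a secreted ligand of neurexins, and had the largest fall of the 10. On probe set 1385799_at the A2B5+ arrays, in the order of replicates 1 to 4, read 1.31, 1.634, 1.414 and 1.549, and the GalC+ arrays 0.363, 0.162, 0.169 and 0.69. The populations did not overlap, and within GalC+ replicates 2 and 3 were lowest and replicate 4 highest. The log2 difference was -2.35 ± 0.40 SE (n = 4 and 4, limma adjusted p = 0.00195), the 12th lowest of 31042 probe sets.

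The other probe sets of Nxph1 fell as well. On 1386697_at the ratios were 1.545, 1.938, 1.318 and 1.486 in A2B5+ and 0.389, 0.218, 0.219 and 0.682 in GalC+ (log2 difference -2.21 ± 0.33 SE, limma adjusted p = 9.55e-04). On 1369079_at they were 1.482, 1.553, 1.443 and 1.325 in A2B5+ and 0.552, 0.534, 0.537 and 0.675 in GalC+ (-1.34 ± 0.10 SE, limma adjusted p = 1.67e-05). This probe set had the smaller fall and the tighter replicates, with an SD of 0.0675 in GalC+. The difference between 1385799_at and 1369079_at in their contrast was -1.01 on the log2 scale and did not pass (exact permutation test, two-sided, p = 0.0857; 0.143 after Benjamini-Hochberg adjustment over 5 pairs; smallest possible p 0.0286). Without GalC+ replicate 4 it was -1.35 and passed (exact permutation test, adjusted p = 0.0476). That pass needed the pair of 1369079_at and 1386697_at and the pair of Dscam probe sets to reach the smallest possible p as well. As the mean of its 3 probe sets Nxph1 differed by -1.97 ± 0.26 SE (limma adjusted p = 3.85e-04). Quantile normalization moved 1385799_at to -2.96, a change in fold of over 1.5 times.

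C1ql1, a secreted protein with a C1q domain that binds the adhesion receptor Adgrb3, showed no detectable difference. The A2B5+ arrays read 0.904, 1.017, 0.983 and 1.236 and the GalC+ arrays 0.9, 1.682, 0.785 and 1.252. GalC+ replicate 2 was the highest of all 8 arrays and GalC+ replicate 3 the lowest. The log2 difference was 0.10 ± 0.22 SE (limma adjusted p = 0.755), with a 95% interval from -0.38 to 0.59, so that a fall to 1.3-fold and a rise to 1.5-fold both lie within it. Without GalC+ replicate 2 the difference turned to -0.10.

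Emid1, a secreted matrix protein with an EMI domain, was lower in GalC+ by a smaller amount. Its ratios were 1.258, 1.026, 1.24 and 1.324 in A2B5+ and 0.93, 0.615, 0.831 and 0.974 in GalC+, without overlap. A2B5+ replicate 2 and GalC+ replicate 4 lay closest to each other. The log2 difference was -0.55 ± 0.15 SE (limma adjusted p = 0.0194), a call lost without A2B5+ replicate 1 (adjusted p = 0.0514) and without A2B5+ replicate 4 (0.058).

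Among the membrane proteins, Dscam fell most. It is an immunoglobulin-superfamily adhesion molecule best known for self-avoidance and axon guidance in neurons. On probe set 1368699_at the ratios were 1.242, 1.658, 1.334 and 1.74 in A2B5+ and 0.478, 0.421, 0.424 and 0.758 in GalC+. On 1382696_at they were 1.144, 1.637, 1.154 and 1.629 in A2B5+ and 0.691, 0.694, 0.553 and 0.856 in GalC+. Neither probe set overlapped between populations, and on both A2B5+ replicates 2 and 4 were above replicates 1 and 3. The log2 differences were -1.55 ± 0.19 SE and -0.99 ± 0.16 SE (limma adjusted p = 3.89e-04 and 0.00176). The contrast of the first minus that of the second was -0.56 on the log2 scale (exact permutation test, two-sided, p = 0.0286, the smallest it can give; 0.143 after adjustment over 5 pairs, and 0.0476 without GalC+ replicate 4).

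Megf11, a transmembrane protein with EGF-like repeats that spaces the cell bodies of retinal neurons, was modestly lower. The A2B5+ arrays read 1.229, 1.116, 1.003 and 1.263 and the GalC+ arrays 0.845, 0.714, 0.807 and 0.997. The populations touched without overlap, GalC+ replicate 4 lying just under A2B5+ replicate 3. The log2 difference was -0.46 ± 0.11 SE (limma adjusted p = 0.0146, and at most 0.0468 when any 1 array was left out).

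Tmem100, a membrane protein known from endothelial signalling through the receptor Acvrl1, did not pass on either probe set. On 1389467_at the ratios were 1.229, 1.132, 1.472 and 0.545 in A2B5+ and 0.868, 0.719, 1.386 and 0.384 in GalC+. Replicate 3 was the highest and replicate 4 the lowest in both populations, and the spread within a population was wider than the difference between them (log2 difference -0.44 ± 0.39 SE, limma adjusted p = 0.449, 95% interval -1.32 to 0.44). On 1378089_at the ratios were 1.053, 1.04, 1.159 and 1.098 in A2B5+ and 0.952, 0.692, 0.96 and 0.958 in GalC+. These did not overlap, and the difference of -0.30 ± 0.11 SE had an unadjusted p of 0.0243 and a limma adjusted p of 0.0782. After quantile normalization the latter was -0.31 and passed (adjusted p = 0.0361). With a replicate block, which takes same-numbered arrays as pairs, both probe sets passed (limma adjusted p = 0.0152 on 1389467_at and 0.0484 on 1378089_at). Whether such arrays share a litter is not stated, so the call of Tmem100 depends on a pairing that is not known. Endothelial markers did not pass in either direction (0 of 10 in each, 0 at an unadjusted p under 0.05 and 0 with each probe set's own spread).

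Lhfpl3, a membrane protein of the LHFPL family with 4 predicted spans and a widely used progenitor marker, showed no detectable difference. Its ratios were 0.913, 1.017, 0.983 and 1.193 in A2B5+ and 0.885, 1.17, 0.709 and 1.148 in GalC+. The GalC+ arrays lay on both sides of the A2B5+ arrays. The log2 difference was -0.09 ± 0.16 SE (limma adjusted p = 0.705), and the 95% interval from -0.45 to 0.27 leaves room for a fall of up to 1.37-fold. Without GalC+ replicate 3 its sign turned (0.05).

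Cacng4, an auxiliary subunit of AMPA receptors, and Xylt1 both had close replicates and no call. Cacng4 read 1.029, 0.985, 1.092 and 0.866 in A2B5+ and 1.035, 0.882, 1.007 and 0.993 in GalC+. All 8 values lay close to the median, and the 95% interval of the log2 difference was -0.22 to 0.19 (-0.02 ± 0.09 SE, limma adjusted p = 0.903). It allows a fall of at most 1.17-fold in the signal of this probe set. Whether that signal lies above background cannot be judged. The sign of this difference turned without A2B5+ replicate 1 or 3 or GalC+ replicate 2 (highest 0.03).

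Xylt1 encodes the enzyme that adds the first sugar, a xylose, of chondroitin and heparan sulfate chains to proteoglycan core proteins. Its ratios were 0.973, 0.903, 1.056 and 0.949 in A2B5+ and 0.905, 1.102, 1.027 and 1.039 in GalC+. The populations overlapped, with a log2 difference of 0.07 ± 0.08 SE (limma adjusted p = 0.59, 95% interval -0.12 to 0.26). This interval allows a fall of at most 1.09-fold in the signal of this probe set, which likewise cannot be placed above background.

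Rlbp1, which encodes the cellular retinaldehyde-binding protein known from retinal pigment epithelium and Müller glia, was lower in GalC+. The A2B5+ arrays read 1.214, 1.54, 1.246 and 1.382 and the GalC+ arrays 0.491, 0.315, 0.395 and 0.786. The populations did not overlap, and GalC+ replicate 4 was again the highest of its population. The log2 difference was -1.52 ± 0.24 SE (limma adjusted p = 0.00126).

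**Figure D2:**
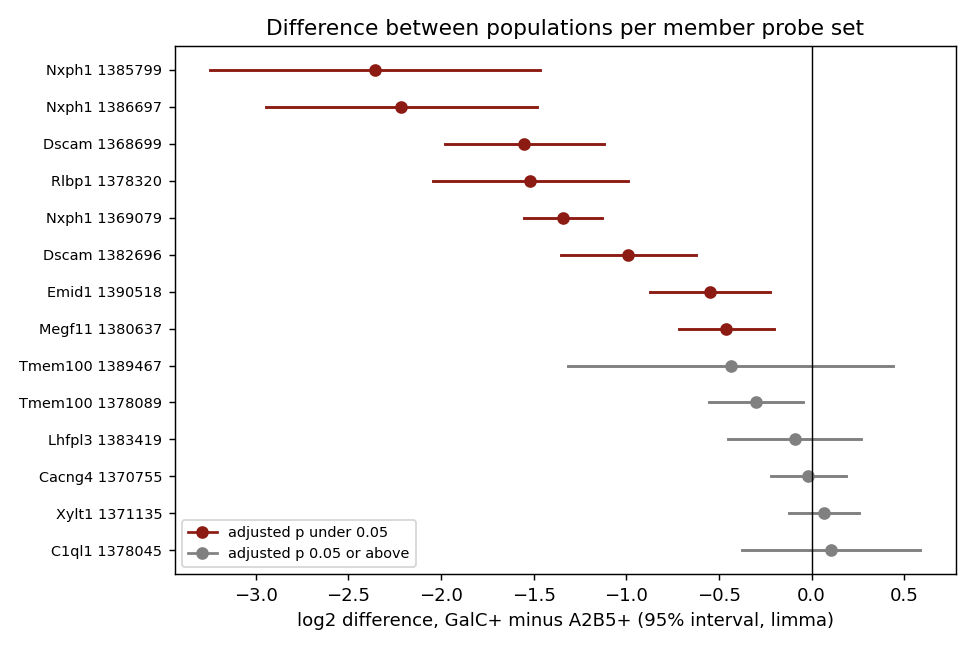
Log2 difference of each probe set, GalC+ minus A2B5+, with its 95% interval from limma (n = 4 and 4 arrays); red marks an adjusted p under 0.05. The differences run from -2.35 (Nxph1 1385799_at) to 0.10 (C1ql1), and the intervals of Cacng4 and Xylt1 are narrow around 0 while that of Tmem100 1389467_at spans -1.32 to 0.44.

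Among the probe sets that fell, the GalC+ arrays had the same extremes in most cases. GalC+ replicate 4 was the highest GalC+ array in 8 of the 8 called probe sets, and GalC+ replicate 2 the lowest in 7 of them. Among the A2B5+ arrays, replicate 2 was the highest in 5 and replicate 4 in 3. On the first principal component over all probe sets, GalC+ replicate 4 also had the lowest GalC+ loading (0.219) and replicate 2 the highest (0.449). How many of all lower probe sets share these extremes was not counted. Several of the 8 called probe sets belong to Nxph1 or Dscam. The log2 SD was wider in GalC+ than in A2B5+ in 7 of the 8, for example 1.00 against 0.14 on Nxph1 1385799_at. Without GalC+ replicate 4 the same number of probe sets passed (8 of 14), and the differences were -2.78 for Nxph1 1385799_at, -1.75 for Dscam 1368699_at and -1.77 for Rlbp1. With each probe set's own spread in each population, only 3 of the 8 passed (Nxph1 1369079_at and both probe sets of Dscam). Lower calls over all probe sets went from 4109 to 2023. With that spread the adjusted p of Rlbp1 was 0.0581, of Megf11 0.0646 and of Emid1 0.102. Whether the genes that fell differ in their contrast from those without a call was not tested.

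**Figure D3:**
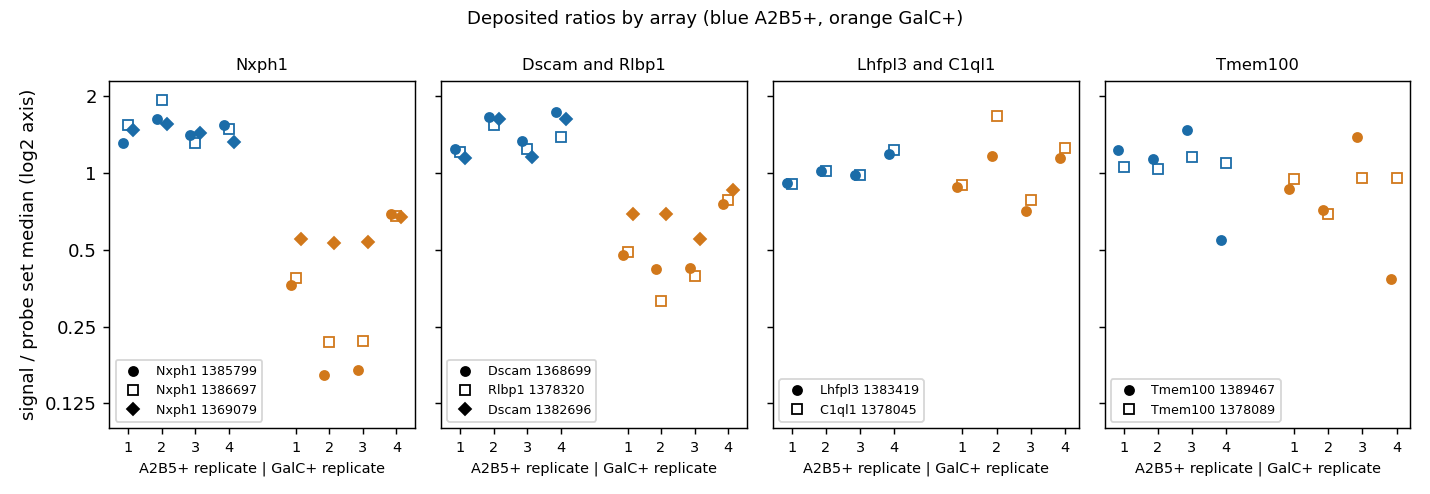
Deposited ratios by array (log2 axis, no unit) in 4 panels (Nxph1, Dscam with Rlbp1, Lhfpl3 with C1ql1, and Tmem100), A2B5+ replicates 1 to 4 in blue and GalC+ replicates 1 to 4 in orange. GalC+ replicate 4 is the highest GalC+ array for Nxph1, Dscam and Rlbp1 (0.69, 0.758 and 0.786 on their probe sets with the largest variance), and replicate 4 of Tmem100 1389467_at is the lowest in both populations (0.545 and 0.384).

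Other progenitor genes moved in both directions. Each was represented by its most variable probe set, and 10 of 31 measured were lower and 6 higher, against 17.1% and 17.7% of all genes, with a median of -0.25, against 0.04 for all genes. Sox11, a transcription factor of immature cells, differed by -2.21 ± 0.30 SE and Sapcd2, a regulator of spindle orientation, by -1.59 ± 0.17 SE. The growth factor receptor Pdgfra, which sustains progenitor proliferation, was at -1.26 ± 0.23 SE (limma adjusted p = 0.00259), with ratios without overlap. The proteoglycan Cspg4 (NG2), a defining progenitor marker, was at 0.01 ± 0.15 SE (limma adjusted p = 0.965). Cspg4 is also in the list of mural cell markers, of which 9 of 11 were higher in GalC+, and their part was not tested. Tenascin-R (Tnr) at 1.72 ± 0.28 SE and the semaphorin Sema5a at 1.62 ± 0.26 SE (mean of 4 probe sets 0.90) were higher in GalC+. This list was chosen with earlier results of these data known.

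**Figure D4:**
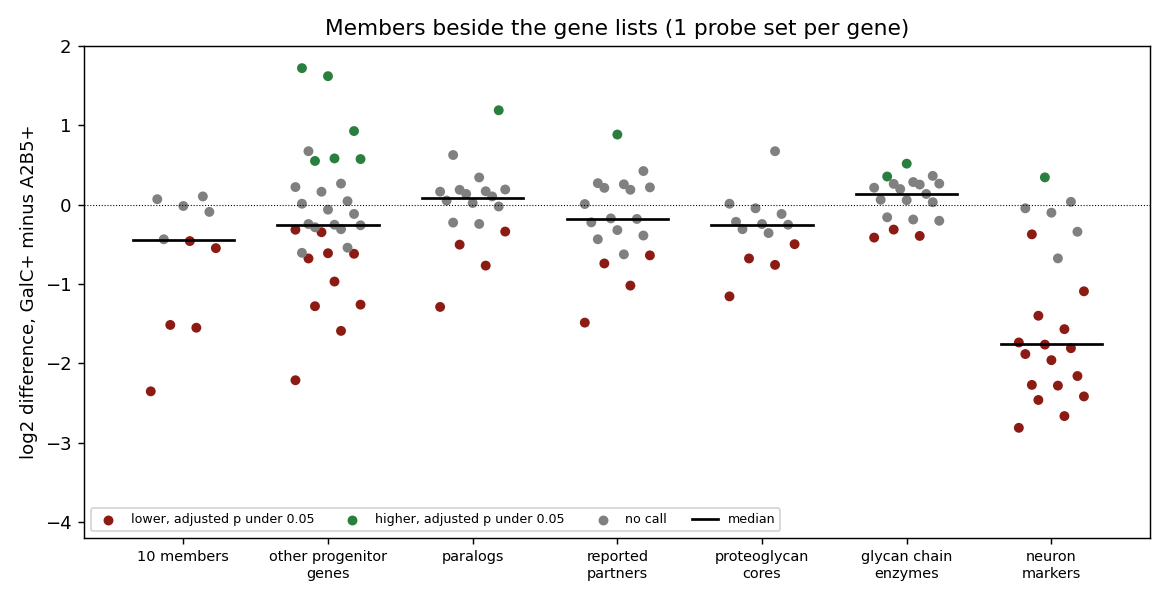
Log2 difference, GalC+ minus A2B5+, for the 10 genes and for the gene lists, each gene shown by its most variable probe set; red is lower and green higher at an adjusted p under 0.05, and bars are medians. The 10 genes span -2.35 to 0.10 with 5 lower, and the neuron markers have the lowest median, -1.75.

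Of 18 paralogs measured, 4 were lower and 1 higher, against 17.1% and 17.7% of all genes, with a median of 0.08. The share of lower paralogs is near that of all genes. Nxph3, a further neurexophilin, was lower by its more variable probe set (-1.29 ± 0.17 SE; mean of 2 probe sets -0.57), as was C1ql3 (-0.77 ± 0.15 SE; mean of 2 probe sets -0.35). The auxiliary AMPA receptor subunit Cacng2 (-0.51, mean of 2 probe sets -0.15) and Nxph4 (-0.34) were the other 2 lower, named after their values were seen. Col26a1, a collagen with an EMI domain like that of Emid1, was higher (1.19 ± 0.14 SE, limma adjusted p = 2.74e-04).

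Reported partners of the 10 proteins were lower in 4 of 19 and higher in 1, with a median of -0.18. The share of lower partners is near the 17.1% of all genes, and 17.7% of all genes were higher. The neurexin Nrxn3, a receptor of the kind that Nxph1 binds, was lower (-1.49 ± 0.20 SE, limma adjusted p = 6.64e-04; mean of 2 probe sets -0.91). The AMPA receptor subunits Gria1 (-1.02 ± 0.19 SE) and Gria2 (-0.74, mean of 2 probe sets -0.56) were lower while their auxiliary subunit Cacng4 had no call. Gria2 and the channel Trpv1 (-0.64, mean of 3 probe sets -0.13) were named after their values were seen. Adgrb3, the receptor of C1ql1, was at -0.18 ± 0.12 SE (adjusted p = 0.299), and Acvrl1, tied to Tmem100, at 0.21 ± 0.20 SE (0.478); both were named after their values were seen. The netrin receptor Unc5c was higher (0.88 ± 0.14 SE, mean of 2 probe sets 0.72).

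Xylt1 starts the chains that proteoglycan core proteins carry. Of 13 core proteins measured, 4 were lower and 0 higher, against 17.1% and 17.7% of all genes (1 higher at an unadjusted p under 0.05, 0 with each probe set's own spread), with a median of -0.25. They were the glypican Gpc2 (-1.16 ± 0.15 SE), the syndecan Sdc1 (-0.76 ± 0.12 SE, mean of 2 probe sets -0.55), Cspg5 (-0.68) and Sdc3 (-0.50, mean of 3 probe sets -0.05). Cspg5 and Sdc3 were named after their values were seen, and Cspg5 is also counted among the lower other progenitor genes. Of 19 enzymes that act with or after Xylt1 on the chains, 3 were lower and 2 higher, with a median of 0.13. These shares are near or below the 17.1% and 17.7% of all genes, and the enzymes named next describe the count only. The chondroitin polymerising factor Chpf (-0.42 ± 0.10 SE) and the heparan sulfate polymerase Ext1 (-0.40 ± 0.08 SE, mean of 2 probe sets -0.37) were lower. The linkage enzyme B3gat3 was higher (0.52 ± 0.13 SE). Chsy1 (-0.32) and Csgalnact1 (0.35, mean of 2 probe sets 0.30, with overlapping populations) complete the count and were named after their values were seen.

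The gene outside the 10 whose ratios over the 8 arrays were most like each member was found by Pearson correlation among 20812 named probe sets, as a description. For genes that fell, the coefficient mainly reflects the gap between the populations. Reep1 was the nearest to Nxph1 (r = 0.997) and to Rlbp1 (0.996), Prmt8 to Dscam (0.997), Nme4 to Megf11 (0.990) and Ildr2 to Emid1 (0.983). Among those without a call, Sin3b was nearest to Lhfpl3 (0.974), Mycl to C1ql1 (0.966), Alox15 to Cacng4 (0.920), Mllt6 to Xylt1 (0.984) and Cars2 to Tmem100 (0.945).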

How the data were processed

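RNA of 4 A2B5+ and 4 GalC+ sorts was labelled with biotin and hybridised to 1 array per sort. Per the submitters' processing notes RMA was used, with no version given in the sources used here. Each deposited value is a ratio on a linear scale, with a median over the 8 arrays of 0.9995 to 1 in each of 31099 rows; this reading comes from the values. The array medians ran from 0.979 to 1.03.

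Ratios were taken to log2 with nothing added. After 57 control probe sets were left out, 31042 were tested with limma 3.58.1 in R 4.3.3 (lmFit, eBayes, two-sided, Benjamini-Hochberg over all, threshold 0.05). Names came from the platform's annotation; 20826 probe sets had 1 symbol, 436 several and 9780 none. A gene in a list was read from its probe set with the largest variance. The fit was tested on simulated data. The number of arrays limits the precision (median SE 0.099). Litters are separate within a population, and p-values refer to the spread between them; no batch is given.

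Members and lists were chosen with earlier results of these data known. The rule for named genes took all 10 members, up to 2 lower and 2 higher non-overlapping genes per list, the nearest gene by correlation, and markers of the sorted stages. Alternatives were median centring, quantile normalization, another prior, array weights, each probe set's own spread (a Welch statistic), a replicate block, other ways to read a gene, a pseudocount of 0.1, a threshold of 0.01 and leaving out each array.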

Additional observations from a re-analysis of the deposited data

Results flagged for a closer look

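In 28 groups of 4 arrays (14 probe sets in 2 populations), 2 held an array far from the other 3, its gap to the nearest being most of the group's range (Dixon's test, 95% level); about 1 group in 20 does so by chance. GalC+ replicate 4 read 0.675 on Nxph1 1369079_at, above the other GalC+ arrays at 0.534 to 0.552. GalC+ replicate 2 read 0.692 on Tmem100 1378089_at, below the others at 0.952 to 0.96.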

How the results depend on the processing

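Of 210 refitted differences of the member probe sets, 195 kept their direction and call, 7 lost the call, 3 gained it and 5 changed sign, the last all in probe sets without a call when 1 array was left out. Leaving out 1 array, Lhfpl3 ranged from -0.188 to 0.052, C1ql1 from -0.099 to 0.268 and Cacng4 from -0.082 to 0.032 (0.001 without A2B5+ replicate 1, 0.030 without A2B5+ replicate 3). With any 1 array left out, 7 to 8 probe sets and 4 to 5 genes were lower; after quantile normalization 9 and 6 were. Under each setting named here, 0 member probe sets were higher. With the Welch statistic, 3 probe sets and 2 genes were lower and over all probe sets 2023 were lower and 2397 higher, against 4109 and 4204; at a threshold of 0.01, 6 probe sets and 3 genes were lower (2316 and 2595 over all). Lower against higher calls over all probe sets were 4490 and 3957 after median centring and 4529 and 4097 after quantile normalization.

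Replicate numbers were not taken as pairs, as a shared litter is not stated. Deviations of same-numbered arrays correlated at 0.401, 0.089, 0.304 and 0.172, and those of different-numbered arrays at -0.257 to 0.136. For A2B5+ replicates 1, 3 and 4 the same-numbered GalC+ array was the most correlated. A2B5+ replicate 2 correlated as well with GalC+ replicate 4 (0.090). With the replicate block, 10 probe sets and 6 genes were lower, Tmem100 joining (adjusted p = 0.0152 on 1389467_at and 0.0484 on 1378089_at). Over all probe sets 4688 were lower with that block, against 4109 without it. Without GalC+ replicate 4 the differences between probe sets of 1 gene passed for Nxph1 (-1.35 and 1.13) and Dscam (-0.66). They passed only jointly, each at the smallest possible p, and both Nxph1 differences share 1369079_at, so they are not separate results. The difference between the probe sets of Tmem100 changed sign without A2B5+ replicate 3 (0.005) or GalC+ replicate 4 (0.231). With any 1 array left out, the Nxph1 differences ran from -1.354 to -0.770 (1385799_at and 1369079_at) and from 0.698 to 1.134 (1369079_at and 1386697_at), that of Dscam from -0.656 to -0.474 and that of Tmem100 from -0.447 to 0.231.

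List counts moved by over 1.5 times in 39 of 330 cases. The Welch statistic gave 3 lower and 2 higher other progenitor genes, 8 lower and 0 higher neuron markers, 2 lower core proteins and 0 higher chain enzymes. At 0.01, 6 progenitor genes were lower, 1 chain enzyme was lower and 0 higher, and 0 neuron markers were higher. With the replicate block, 7 partners were lower and 2 higher, 3 paralogs higher, and 1 endothelial marker lower and 2 higher. Of the astrocyte markers, 4 were lower without GalC+ replicate 3, and 1 each with the replicate block, array weights and the trended prior. The remaining changes were to counts of 0 to 4 genes. The causes were not tested. Without a level, signal over background cannot be judged.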

Other observations

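Lhfpl3 and C1ql1 ranked the arrays in the same order in each population, lowest to highest A2B5+ replicates 1, 3, 2 and 4 and GalC+ replicates 3, 1, 4 and 2. The same held for Rlbp1 and Nxph1 1385799_at, in an order of their own. Of 91 pairs of member probe sets, these 2 did so; they were noticed after the values were seen.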
